A study of Homo sapiens with 2 samples.

Results

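The genes of the mitochondrial ribosomal proteins were taken from the deposited expression table by symbol, as every gene whose symbol is MRPL or MRPS followed by a digit. This gave 78 of 19607 genes, 49 of the large subunit (MRPL) and 29 of the small subunit (MRPS), and no pseudogene carried such a symbol. RNA sequencing was done on CWR22rv1 cells, a human prostate cancer (CaP) cell line that expresses the androgen receptor, as 1 library of cells with both Akt1 and Akt2 knocked out (Akt1/2 DKO) and 1 library of wild type cells (control). The knockout was made with CRISPR/Cas9 plasmids and puromycin selection, and the knockout cells were grown from single cells, so the Akt1/2 DKO library can be that of 1 clone; the labels do not name it. How the control cells were handled is not given in the sources used here, and a difference between 1 clone and the control cells cannot be told apart from the knockout.

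Mitochondria keep a ribosome of their own, the mitoribosome, which makes the few proteins encoded by mitochondrial DNA, all of them core subunits of the respiratory chain and ATP synthase. Its rRNAs come from mitochondrial DNA, whereas its proteins are encoded in the nucleus, made in the cytosol and imported. The small subunit (28S) binds the mRNA and decodes it, and the large subunit (39S) holds the peptidyl transferase centre and the exit tunnel. Part of the proteins descend from those of the bacterial ribosome and part were added in mitochondria. Akt is a kinase of the insulin and growth factor pathway that promotes growth and cytosolic protein synthesis.

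Values are given as estimated reads, rounded to whole reads, and as FPKM (fragments per length of transcript and depth of library), which compares levels between genes. Fold changes compare reads in Akt1/2 DKO with those in control after TMM scaling, where the Akt1/2 DKO library counted as 1.11 times the control library. The 95% intervals are exact for the split of a gene's reads between the libraries and cover counting error only. With 1 library per condition no difference can be set against the spread between replicates and no test was made, so "rose" and "fell" mean a difference of at least 1.5-fold (0.58 on the log2 scale) between these libraries. In bulk RNA, fewer cells with a transcript and less of it per cell cannot be told apart. The libraries held 9970825 reads (control) and 10718654 reads (Akt1/2 DKO). The targeted genes checked the labels, with AKT1 at 2645 reads in control and 591 in Akt1/2 DKO, and AKT2 at 2362 and 667. All 9 markers of prostate luminal epithelium were detected in both libraries, with 22257 reads together in control and 39255 in Akt1/2 DKO, although the PSA gene KLK3 had 184 reads in control and only 29 in Akt1/2 DKO. The 5 fibroblast markers held 1029 and 205 reads together, of which VIM, which cancer cells also express, had 897 and 84. Of the collagens among them, COL3A1 had 74 and 9 reads, COL1A1 55 and 106 and COL1A2 1 and 3. The 3 blood cell markers had 1 and 0 reads, and the 2 endothelial markers 1 and 2.

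All 78 genes were expressed in both libraries, with 405 to 4686 reads per gene in the 2 libraries together. FPKM ran from 8.61 to 185.78 in control, with a median of 49.3, and from 10.51 to 208.28 in Akt1/2 DKO, with a median of 49.8. The genes kept nearly the same order, with a Pearson correlation of 0.944 and a Spearman correlation of 0.947 between the libraries on log2 FPKM across the 78 genes, which share library and annotation and are not replicates. In control the highest levels were those of MRPL37 (185.78 FPKM), MRPS34 (148.57), MRPL3 (141.39), MRPL24 (134.94) and MRPL12 (132.65). The lowest were those of MRPL50 (8.61 FPKM), MRPS31 (12.94), MRPS36 (15.21), MRPS18C (16.25) and MRPL40 (18.89). In Akt1/2 DKO the highest level was that of MRPL24 (208.28 FPKM), ahead of MRPS34 (164.22) and MRPL12 (160.24), and MRPL50 was again the lowest. MRPL12 belongs to the stalk of the large subunit, where translation factors dock, and also binds the mitochondrial RNA polymerase. Its 1369 and 1778 reads gave a log2 fold change of 0.23 (95% interval 0.13 to 0.33).

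**Figure D1:**
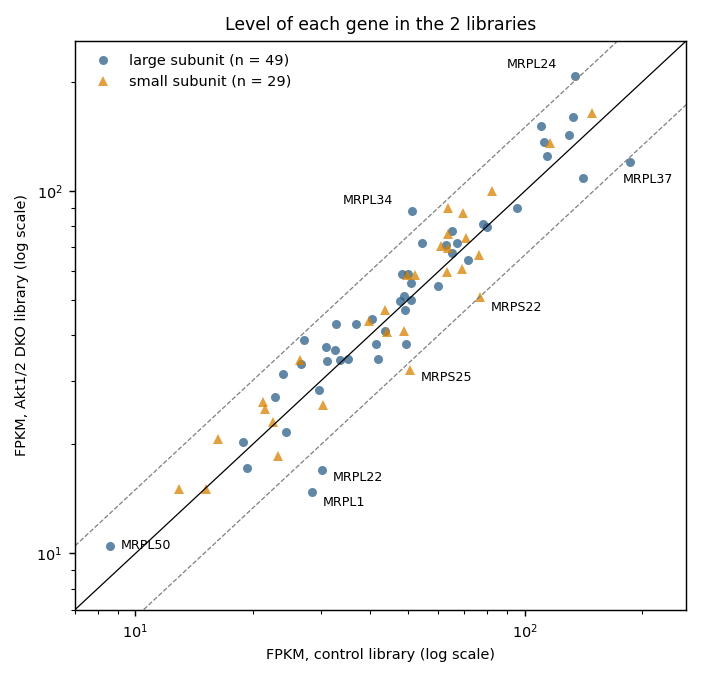
FPKM of the 78 mitochondrial ribosomal protein genes in the control library (x axis) and the Akt1/2 DKO library (y axis), both on log scales, with circles for the large and triangles for the small subunit. The solid line marks equal FPKM and the dashed lines a 1.5-fold difference, and most genes lie between the dashed lines, with MRPL1, MRPL22, MRPS25, MRPL37 and MRPS22 on or below them and MRPL34 and MRPL24 above.

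The family as a whole differed little between the libraries. Its genes took 55715 reads in control and 62263 in Akt1/2 DKO, 0.559% and 0.581% of all reads, and after scaling the sum differed by 0.01 on the log2 scale (95% interval -0.01 to 0.03). This sum joins 4 genes on chromosome 3, at -0.57 (-0.62 to -0.51) together, with 74 other members at 0.06 (0.05 to 0.08), an interval that excludes no change. With total count scaling the sum of all 78 was 0.06, and in the authors' FPKM 0.09. Of the 78 genes, 72 stayed within 1.5-fold, 5 fell and 1 rose. Among all 10956 genes with at least 100 reads, which every member had, 23.2% passed this limit (11.3% upward and 11.9% downward), against 6 of 78 members (7.69%). Among the 13318 genes with at least 10 reads the share was 30.9% (15.9% upward and 15.0% downward). The median log2 fold change of the members was 0.07, with the middle 50% between -0.13 and 0.21, and that of all genes with at least 100 reads was 0.00, with the middle 50% between -0.28 and 0.26. The standard deviation of the log2 fold change over genes was 0.31 in the family and 0.97 over all genes with at least 100 reads. No member differed by 2-fold or more, as 11.1% of those genes did, and 17.9% of the genes with at least 10 reads. At this depth the 95% interval of a member was between 0.08 and 0.29 wide on each side, so small differences were resolved beyond counting error. In 26 members the interval lay above no change and in 16 below it, together 42 of 78, while 62.3% of all genes with at least 100 reads had an interval that excluded no change, 30.6% above and 31.7% below. With at least 10 reads these shares were 59.2%, 29.8% and 29.4%. All 6 members past 1.5-fold had an interval that excluded no change, and 23.2% of genes with at least 100 reads (27.0% with at least 10) met both conditions.

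**Figure D2:**
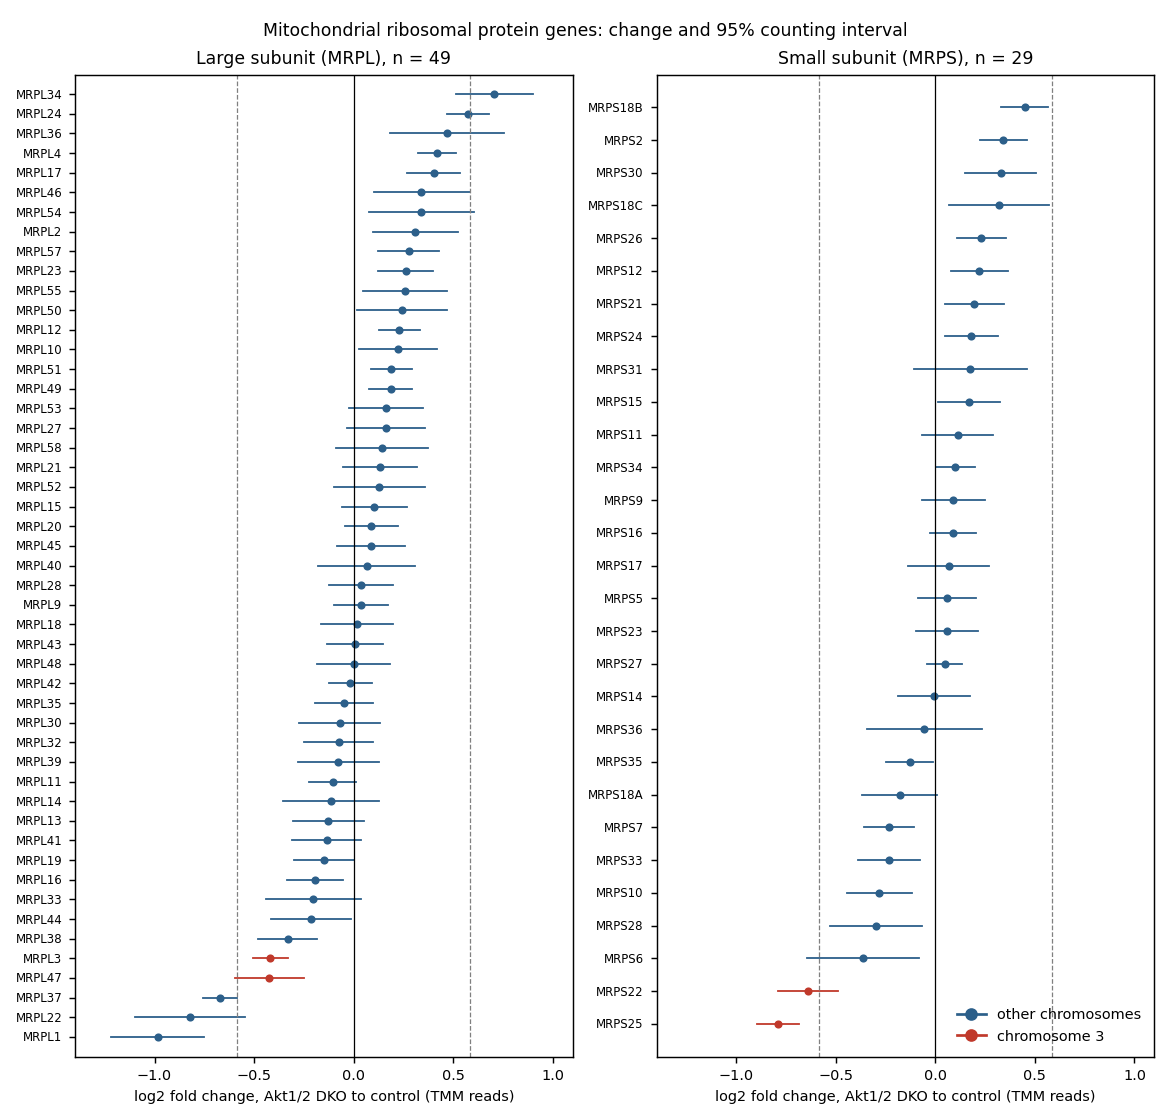
Log2 fold change (Akt1/2 DKO to control, TMM-scaled reads) of each large subunit gene (left) and small subunit gene (right), with 95% exact intervals for counting error as bars and dashed lines at 1.5-fold. Genes on chromosome 3, in red, are among the lowest of both subunits, and all 6 genes past 1.5-fold are at the ends of the order.

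Set against each other, the subunits had nearly the same median. The median log2 fold change was 0.06 over the 49 large subunit genes and 0.07 over the 29 small subunit genes, a difference of -0.0010. In the large subunit 1 gene rose and 3 fell, and in the small subunit 0 rose and 2 fell. The changes ran from -0.98 to 0.71 for the large and from -0.79 to 0.45 for the small subunit. Off chromosome 3 the small subunit ran from -0.36 to 0.45, with 0 of 27 genes past 1.5-fold. The large subunit there still ran from -0.98 to 0.71, with 4 of 47 past 1.5-fold (8.51%). Among all genes with at least 100 reads the share was 23.2%, which includes chromosome 3 with a share of 51.5%. Large subunit genes held 60.5% of the family's reads in control (95% exact interval 60.1 to 60.9) and 60.8% in Akt1/2 DKO (60.4 to 61.2), and these intervals overlap. Without the 4 genes on chromosome 3 the shares were 61.5% (61.1 to 62.0) and 61.1% (60.7 to 61.5), so that the order of the libraries turned. The ratio of summed reads, large to small, was 1.53 in control and 1.55 in Akt1/2 DKO.

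A symbol does not always give the subunit in which a protein sits. MRPS30 and MRPS18A lie in the large subunit of the human mitoribosome, MRPS36 is now counted as a part of the 2-oxoglutarate dehydrogenase complex, and DAP3, PTCD3, CHCHD1 and AURKAIP1 (small subunit) and GADD45GIP1 (large subunit) carry other symbols. Arranged by position, the median log2 fold change was 0.08 over 52 large and 0.06 over 30 small subunit genes, and the summed reads differed by 0.03 (95% interval 0.01 to 0.05) and -0.01 (-0.04 to 0.01). Genes with a bacterial homolog (46, median 0.08, 3 of them past 1.5-fold) and genes added in mitochondria (36, median 0.06, 3 past 1.5-fold) had close medians. Their summed reads went opposite ways. The log2 fold change was 0.07 (95% interval 0.05 to 0.09) for the first and -0.05 (-0.07 to -0.03) for the second. The second holds MRPL37 and, on chromosome 3, MRPS25 and MRPS22. Sums of these groups without such genes were not computed, so the opposite directions can rest on a few genes. Split by subunit, the median was 0.04 for 30 large subunit genes with a bacterial homolog and 0.11 for 22 large subunit genes added in mitochondria. It was 0.09 for 16 small subunit genes with a bacterial homolog, none of which rose or fell, and -0.04 for 14 small subunit genes added in mitochondria, of which MRPS25 and MRPS22 fell.

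Of the large subunit proteins, MRPL1 had the largest fall of the family. MRPL1 (ENSG00000169288, chromosome 4 from 77862520 to 77952790) is the counterpart of bacterial L1, the protein of the mobile stalk beside the exit site of tRNA. It had 424 reads (28.34 FPKM) in control and 238 reads (14.80 FPKM) in Akt1/2 DKO, 1.98-fold lower (95% interval 1.68 to 2.32). MRPL22 (ENSG00000082515, chromosome 5 from 154941070 to 154969411), the counterpart of bacterial L22, which lines the exit tunnel, had 285 reads (30.17 FPKM) and 179 reads (16.99 FPKM), 1.77-fold lower (1.46 to 2.14). MRPL37 (ENSG00000116221, chromosome 1 from 54184041 to 54225464), a protein with no bacterial homolog, had 2763 reads (185.78 FPKM) and 1923 reads (120.63 FPKM), 1.59-fold lower (log2 fold change -0.67, interval -0.76 to -0.59). MRPL37 thus went from the highest FPKM of the family in control to below MRPL24, MRPS34, MRPL12, MRPL4, MRPL51, MRPL23, MRPS24 and MRPL20 in Akt1/2 DKO. Exons of MRPL37 overlap those of CYB5RL by 140 bases and those of SSBP3 by 33 bases on the opposite strand, and whether the reads were counted by strand is not given in the sources used here. SSBP3 had 1459 and 548 reads, a log2 fold change of -1.56, and CYB5RL had 421 and 388 reads, one of -0.27; their part in the value of MRPL37 was not tested.

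The only member that rose was MRPL34 (ENSG00000130312, chromosome 19 from 17292609 to 17306843), the counterpart of the small bacterial protein L34. It had 344 reads (51.24 FPKM) in control and 622 reads (88.22 FPKM) in Akt1/2 DKO, 1.63-fold higher (1.43 to 1.87). Its exons overlap those of ABHD8 by 223 bases on the opposite strand. ABHD8 had 39 and 37 reads, and the part of the overlap in the value of MRPL34 was not tested. MRPL24 (ENSG00000143314, chromosome 1 from 156737303 to 156741590), the counterpart of L24, which acts early in assembly of the bacterial large subunit, lay just inside the limit with 1185 reads (134.94 FPKM) and 1957 reads (208.28 FPKM), 1.49-fold higher (1.39 to 1.60). It passed 1.5-fold with total count scaling, with upper-quartile scaling and in the authors' FPKM, which made the split 2 higher and 5 lower. The next highest in the large subunit were MRPL36 (169 and 259 reads, log2 fold change 0.47), MRPL4 (1541 and 2283 reads, 0.42) and MRPL17 (771 and 1129 reads, 0.40). MRPL46 (245 and 344 reads) and MRPL54 (206 and 289 reads) each had a log2 fold change of 0.34. The intervals of these 5 genes all lay above no change, although none rose by 1.5-fold. MRPL57 (602 and 808 reads, 0.28) had an interval above no change as well. MRPL58, which keeps the peptidyl-tRNA hydrolase activity of a release factor, had 287 and 351 reads, and its interval of -0.09 to 0.37 included no change. At the lower end MRPL38 had 794 and 700 reads, a log2 fold change of -0.33. MRPL40 and MRPL50, with low FPKM, had 0.06 (-0.18 to 0.31) and 0.24 (0.02 to 0.47).

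In the small subunit MRPS25 and MRPS22 fell, both proteins with no bacterial homolog. MRPS25 (ENSG00000131368, chromosome 3 from 15042460 to 15065335) had 1870 reads (50.74 FPKM) in control and 1200 reads (32.03 FPKM) in Akt1/2 DKO, 1.73-fold lower (1.61 to 1.86). MRPS22 (ENSG00000175110, chromosome 3 from 139005806 to 139357223), a gene known from inherited mitochondrial disease, had 856 reads (76.66 FPKM) and 609 reads (51.03 FPKM), 1.56-fold lower (1.40 to 1.73). The exons of MRPS25 overlap those of NR2C2 by 1197 bases on the opposite strand, and the estimate for MRPS25 was not a whole number of reads in either library. NR2C2, also on chromosome 3, had 2248 and 1617 reads, a log2 fold change of -0.62. MRPS22 shares 86 exonic bases with COPB2 on the opposite strand, which had 2379 and 1438 reads, one of -0.88. How far these overlaps bear on both values was not tested. Below no change were also MRPS6 (231 and 199 reads, -0.36) and MRPS28 (330 and 298 reads, -0.30), the first the counterpart of bacterial S6. The highest of the small subunit symbols were MRPS18B (979 and 1482 reads, log2 fold change 0.45), MRPS2 (988 and 1387 reads, 0.34), MRPS30 (446 and 621 reads, 0.33) and MRPS18C (225 and 311 reads, 0.32), none of them past 1.5-fold. MRPS34, the small subunit gene with the highest FPKM, had 1529 and 1817 reads, 0.10 (0.00 to 0.20). MRPS31 had 190 and 238 reads, with an interval of -0.11 to 0.46.

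Human cells hold 3 genes for relatives of bacterial S18, and their products sit at different places. MRPS18C and MRPS18B are small subunit proteins, and both had intervals above no change (0.07 to 0.57 and 0.33 to 0.57). MRPS18A, a large subunit protein, had 466 reads (44.31 FPKM) and 456 reads (40.82 FPKM), a log2 fold change of -0.18 with an interval of -0.37 to 0.01. The interval of MRPS18A did not overlap those of the other 2, so within these libraries the trio did not move together. As relatives with 1, 2 and 2 pseudogenes for MRPS18A, MRPS18B and MRPS18C, they can share reads, and the estimates for MRPS18A and MRPS18C were not whole numbers. MRPS36, the symbol that is no longer counted with the mitoribosome, had 196 and 209 reads, -0.06 (-0.34 to 0.23).

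The place of a gene was not used to choose the members. All 4 members on chromosome 3 were lower in Akt1/2 DKO. Beside MRPS25 and MRPS22 these were MRPL3 (ENSG00000114686, chromosome 3 from 131462212 to 131502983), with 2314 reads (141.39 FPKM) and 1918 reads (108.38 FPKM), a log2 fold change of -0.42 (-0.51 to -0.33), and MRPL47 (ENSG00000136522, chromosome 3 from 179588285 to 179604654), with 612 reads (49.47 FPKM) and 506 reads (37.86 FPKM), one of -0.42 (-0.60 to -0.25). MRPL3 is the counterpart of L3, which reaches toward the peptidyl transferase centre, and MRPL47 that of L29 at the tunnel exit. The median of the 4 genes was -0.53, and the median of all 625 genes on chromosome 3 with at least 100 reads was -0.55, with 558 of them lower. Together the 4 genes were 0.676 times their control level (95% interval 0.649 to 0.703), and the 625 genes 0.673 times. The 4 genes lie on both arms of the chromosome, and of the 20 nearest genes with at least 100 reads (10 on each side) 19 were lower for MRPS25, 18 for MRPL3, 17 for MRPS22 and 18 for MRPL47. The change of these members was close to that of their chromosome, and the part of the chromosome in it was not tested. Of the 74 other members 48 were above and 26 below no change, with a median of 0.09, and 3 fell and 1 rose. Among all 10956 genes with at least 100 reads, 5475 were above and 5481 below no change, and 11.9% fell and 11.3% rose. These include chromosome 3, where 67 were above and 558 below, and the shares without it were not computed.

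**Figure D3:**
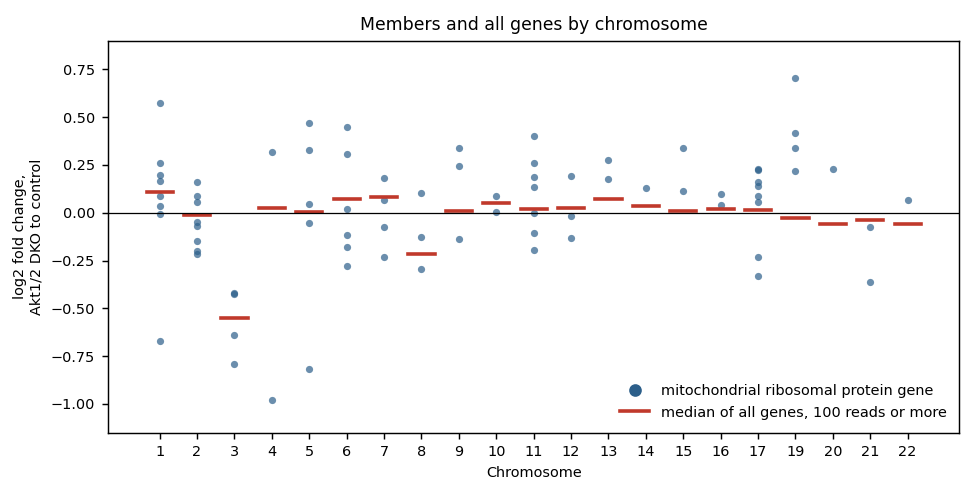
Log2 fold change of each mitochondrial ribosomal protein gene (points) by chromosome, with a red line at the median of all genes with at least 100 reads on that chromosome. The 4 members on chromosome 3 lie around the chromosome's median of -0.55, while MRPL1 on chromosome 4 and MRPL22 on chromosome 5 lie far below medians of 0.03 and 0.01.

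The other members past 1.5-fold lie on other chromosomes. Around MRPL1 7 of the 20 nearest genes were lower (median log2 fold change 0.14), and around MRPL22 also 7 of 20 (median 0.23). Around MRPL37 14 of 20 were lower, with a median of -0.16, and around MRPL34 8 of 20 (median 0.02). The neighbours of MRPL24 tended upward, with 3 of 20 lower and a median of 0.32. Across the 78 members the Pearson correlation of their change with the median of their neighbours was 0.40 (Spearman 0.29), and without the 4 genes on chromosome 3 it was 0.13 (Spearman 0.18, 74 genes). The points share both libraries, and members close to each other share neighbours.

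Many members start head to head with another gene, so that a single stretch of DNA lies between the starts. With starts within 1000 bases, or overlapping by up to 300, 17 members had such a coding partner with at least 100 reads that is not itself a member, and the Pearson correlation of the changes over these 17 pairs was 0.53 (Spearman 0.51). These pairs include MRPL47 with NDUFB5 on chromosome 3 and MRPL41 with PNPLA7, and the correlation without them was not computed. The partners named here were chosen after their values were seen. NDUFB5, a complex I subunit beside MRPL47 on chromosome 3, had 1197 and 862 reads, a log2 fold change of -0.62. FAU, which encodes a cytosolic ribosomal protein beside MRPL49, had 3854 and 4906 reads, 0.20, against 0.19 for MRPL49. NDUFS6 beside MRPL36 had 552 and 646 reads, 0.08, against 0.47 for MRPL36. TWNK, the mitochondrial DNA helicase beside MRPL43, had 581 and 863 reads, 0.42, against 0.01 for MRPL43. PNPLA7 beside MRPL41 had 127 and 67 reads, -1.07, against -0.14 for MRPL41. APBA3 beside MRPL54 had 177 and 156 reads, -0.33, against 0.34 for MRPL54. MRPS11 and MRPL46, members of the 2 subunits whose starts lie 34 bases apart on chromosome 15, had log2 fold changes of 0.11 (-0.07 to 0.29) and 0.34 (0.10 to 0.58), and these intervals overlap.

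Promoter sequences are shown for the members past 1.5-fold, for the other members on chromosome 3, for MRPL24 as the member just inside the limit and for MRPL52 as an example with repeated YY1 letters. They are RefSeq sequences of the human build GRCh38.p14, up to 150 bases upstream of exons, 5′ to 3′ on the strand of the gene. For MRPL1 and MRPL34 the whole stretch before the RefSeq start lies in annotated exons and is not shown. Capitals mark the letters CCGGAAG, a core bound by ETS factors such as GABP (also called NRF-2), and AAGATGGC, a core bound by YY1, on either strand.
MRPL22, chr5:154940920-154941069, plus strand: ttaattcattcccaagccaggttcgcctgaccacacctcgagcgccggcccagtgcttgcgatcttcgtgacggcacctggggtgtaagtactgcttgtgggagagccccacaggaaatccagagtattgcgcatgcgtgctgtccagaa
MRPL37, chr1:54200017-54200166, plus strand: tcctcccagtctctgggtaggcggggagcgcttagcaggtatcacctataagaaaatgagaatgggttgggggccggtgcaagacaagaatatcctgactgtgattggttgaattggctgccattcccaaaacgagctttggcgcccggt
MRPS25, chr3:15065336-15065485, minus strand: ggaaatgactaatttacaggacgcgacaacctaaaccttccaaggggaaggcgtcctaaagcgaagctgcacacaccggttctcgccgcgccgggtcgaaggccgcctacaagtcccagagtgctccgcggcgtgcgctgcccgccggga
MRPS22, chr3:139343806-139343955, plus strand: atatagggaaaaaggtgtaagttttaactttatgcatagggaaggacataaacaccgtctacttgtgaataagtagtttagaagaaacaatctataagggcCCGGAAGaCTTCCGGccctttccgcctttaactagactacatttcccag
MRPL3, chr3:131502984-131503133, minus strand: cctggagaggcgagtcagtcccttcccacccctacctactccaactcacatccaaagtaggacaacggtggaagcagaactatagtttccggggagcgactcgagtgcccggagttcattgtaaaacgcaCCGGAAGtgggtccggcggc
MRPL47, chr3:179604655-179604701, minus strand: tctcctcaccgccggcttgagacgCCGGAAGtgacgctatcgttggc
MRPL24, chr1:156741132-156741281, minus strand: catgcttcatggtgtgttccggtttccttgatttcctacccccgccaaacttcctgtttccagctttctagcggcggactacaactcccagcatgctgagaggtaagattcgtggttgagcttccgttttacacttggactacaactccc
MRPL52, chr14:22829733-22829882, plus strand: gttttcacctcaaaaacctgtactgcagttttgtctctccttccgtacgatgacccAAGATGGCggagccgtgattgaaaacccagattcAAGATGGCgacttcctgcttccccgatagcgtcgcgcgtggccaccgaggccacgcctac

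Of the 4 chromosome 3 members, MRPS22, MRPL3 and MRPL47, hold the ETS letters in the stretch shown, MRPS22 once on each strand, and MRPS25 holds none of the letters searched there. RefSeq windows of 300 bases (250 before and 50 after the start) were found for 69 of the 78 members. For members and for genes with at least 10 reads only 1 window per gene was searched. The 35116 windows were not reduced in this way and can hold several per gene. These windows reach beyond the stretches shown, so they can hold letters that are not marked above. Outside the stretch shown, those of MRPL22 and MRPL47 hold the YY1 letters and that of MRPL52 the ETS letters. Those of MRPL22 and MRPL37 likewise hold the E-box counted below. The ETS letters stood on either strand in 29 of the 69 (42.0%), in 10.3% of all 35116 windows and in 18.9% of the 10358 windows of genes with at least 10 reads. The YY1 letters stood in 20 of the 69, in 2.89% of all windows and in 5.23% of those of expressed genes. The shares were alike in both subunits, at 40.5% of 42 large and 44.4% of 27 small subunit windows for the ETS letters, and 28.6% and 29.6% for the YY1 letters. Members with the ETS letters had a median log2 fold change of 0.06 and those without one of 0.06, and for the YY1 letters the medians were 0.09 and 0.06. The ETS and YY1 letters can overlap by AAG, but no member window holds them overlapped on 1 strand. The NRF1 motif, a palindrome of 10 letters, stood in 1 of the 69 windows (1.45%), that of MRPL17, against 1.24% of all windows and 2.26% of those of expressed genes. The E-box CACGTG, bound by MYC among others, stood in 6 of the 69 (8.70%), above the 7.26% of all windows and below the 10.2% of those of expressed genes. The FOXO letters GTAAACA stood in 0 of the 69 windows and in 3.42% of all windows and 2.31% of those of expressed genes.

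Proteins of the mitoribosome with other symbols also stayed within 1.5-fold. DAP3, a GTP-binding protein of the small subunit, had 978 and 983 reads, a log2 fold change of -0.14 (-0.27 to -0.01). AURKAIP1 had 1014 and 1380 reads, 0.30, and GADD45GIP1 had 812 and 1090 reads, 0.28. CHCHD1 had 273 reads in both libraries, -0.15 (-0.40 to 0.10). PTCD3, a pentatricopeptide repeat protein, had 1338 and 1158 reads, -0.36 (-0.47 to -0.24), but in the authors' FPKM it went from 68.15 to 38.29, a log2 ratio of -0.83, so that it passes 1.5-fold in FPKM only.

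The proteins that assemble and serve the mitoribosome were followed from lists written by hand. Of 26 assembly factors and rRNA modifiers, 1 rose, 1 fell and 24 did neither, with a median log2 fold change of -0.04. The gene that rose was MRM1, an rRNA methyltransferase (96 and 185 reads, 0.80, interval 0.43 to 1.17), and the gene that fell was RPUSD3, a pseudouridine synthase (501 and 365 reads, -0.61, interval -0.80 to -0.41). Of 16 translation factors 1 rose and 1 fell, with a median of -0.04. MTRF1, a release factor, had 34 and 70 reads, 0.89 (0.28 to 1.53), and GFM1, the elongation factor that moves the ribosome along the mRNA, had 1710 and 1143 reads, -0.73 (-0.84 to -0.62). RPUSD3 and GFM1 lie on chromosome 3, as does the helicase DHX30 (3511 and 3020 reads, -0.37), the only other gene there of these lists and of that of regulators. Without them the median of the other 52 genes tested was -0.01, and 3 rose and 0 fell (5.77% past 1.5-fold). Among all genes with at least 100 reads, which every tested gene of these lists had, 11.3% rose and 11.9% fell, chromosome 3 included.

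Of these 3 lists, mitochondrial transcription and its regulators had the highest median, 0.27 over 13 genes tested, of which 1 rose and 0 fell by 1.5-fold. The gene that rose was MYC, a growth regulator that also induces mitochondrial genes, with 2556 and 4689 reads, 0.73 (0.66 to 0.80). TFAM, which packs mitochondrial DNA and starts its transcription, had 332 and 466 reads, 0.34, and TFB2M, its partner at the promoter, 406 and 560 reads, 0.32. POLRMT, the mitochondrial RNA polymerase, had 1576 and 1625 reads, -0.10 (-0.21 to -0.004). Its interval was the only 1 of the list below no change, while 8 lay above. Among all genes with at least 100 reads these shares were 31.7% and 30.6%. ESRRA had 969 and 1392 reads, 0.37, and PPARGC1B, its coactivator, 586 and 853 reads, 0.39. NRF1 had 331 and 353 reads, -0.06, GABPA 398 and 441 reads, -0.00, and YY1 1614 and 1915 reads, 0.10. PPARGC1A had 0 reads in both libraries and was not tested. TFAM, TFB2M, POLRMT, ESRRA, PPARGC1B, NRF1, GABPA and YY1 did not pass 1.5-fold and are given for their roles.

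The mRNAs that the mitoribosome translates took 5.19% of all reads in control and 4.47% in Akt1/2 DKO, 0.834 times the control level after scaling (95% interval 0.831 to 0.838). None of the 13 differed by 1.5-fold, and their median log2 fold change was -0.06. The lower sum came mainly from MT-CO1 (183073 and 143693 reads, -0.50), MT-ND4 (64351 and 53125 reads, -0.43) and MT-CO3 (59914 and 45620 reads, -0.54), while MT-CO2 (68221 and 77806 reads, 0.04) and MT-ATP6 (33937 and 43870 reads, 0.22) were not lower. These 5 genes were singled out after their values were seen. Over the 79 cytosolic ribosomal protein genes the median log2 fold change was 0.01 with a standard deviation of 0.22, and 1 of them fell and 0 rose. Their summed reads differed by -0.00 on the log2 scale, against 0.01 for the mitochondrial family.

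**Figure D4:**
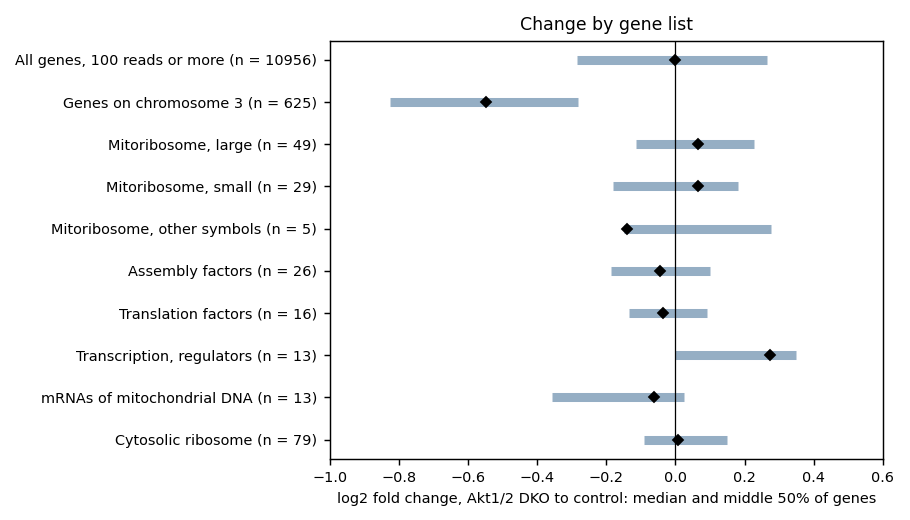
Log2 fold change (Akt1/2 DKO to control) by gene list, with a diamond at the median and a bar over the middle 50% of the genes. Both mitoribosome subunits lie close to no change with a median near 0.07, the genes on chromosome 3 lie far lower at -0.55, and the list of transcription and regulators is the highest at 0.27.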

How the data were processed

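RNA of 1 Akt1/2 DKO and 1 control library of CWR22rv1 cells was analysed. Per gene, the deposited values were estimated counts without normalization and FPKM, both made by the authors. The submitters' processing notes name fastp 0.20.0, TopHat, Cufflinks and edgeR and the build GRCh38.p10, without their roles; the counting tool and the use of strand are not given in the sources used here. The other deposited tables hold the authors' own fold changes, p-values, ontology counts and correlation and were not used.

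The estimates were made whole by rounding. TMM scaling in edgeR 4.0.16 (R 4.3.3) used the 13318 genes whose reads summed to 10 or more over both libraries. A library under 3 reads was set to 3 reads. Intervals are Clopper-Pearson intervals from scipy 1.17.1 (Python 3.11.15) and cover counting error only; reads without molecular identifiers are not independent molecules. With 1 library per condition no test was possible, and the method planned for replicated counts, edgeR's quasi-likelihood test, was not run. The steps were tested on simulated data.

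The members and lists were chosen with earlier results of these data known, and the lists were written from general knowledge. Genes named are AKT1, AKT2, the 10 largest rises and 10 largest falls among members with at least 100 reads, members past 1.5-fold, the 5 highest and 5 lowest by control FPKM, members on chromosome 3, the MRPS18 genes, MRPS30, MRPS36, mitoribosome proteins with other symbols (MRPL57 and MRPL58, once named otherwise, among them) and pathway genes past 1.5-fold with at least 100 reads; others are marked as chosen after their values were seen, or given for their role, rank in FPKM, promoter or neighbouring gene. Positions are those of GENCODE release 29 (GRCh38), in which 19571 of 19607 identifiers were found. In that annotation 34 of the 78 members have pseudogenes, which can share reads, and 12 members had an estimate that was not whole. As alternatives, scaling was by library totals, by upper quartiles or by size factors of DESeq2 1.42.0, FPKM took the place of reads, and the results were rerun with other read filters, other thresholds, subunits by position, a prior count of 1, and leaving out chromosome 3.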

Additional observations from a re-analysis of the deposited data

How the results depend on the processing

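The number of members past 1.5-fold (6) was 6 or 7 under the other scalings, the authors' FPKM and the read filters, 6 with an interval excluding no change also required (chosen after seeing the data), and 4 without chromosome 3. A 2-fold threshold left 0, and an interval excluding no change as the only rule gave 42 (26 higher, 16 lower). The median log2 fold change of the members was 0.11 with total count scaling, 0.12 with upper-quartile scaling, 0.13 in the authors' FPKM and 0.0874 without chromosome 3. For the large subunit it was 0.11, 0.12, 0.11 and 0.0871 in that order, and for the small subunit 0.11, 0.12 and 0.14 under the first 3. These scalings moved the median of all genes too, to 0.05 (total count), 0.06 (upper quartile) and 0.03 (FPKM). The difference between the subunits stayed between -0.03 and 0.01 under every alternative run. The summed level of the members was 0.0560 on the log2 scale with total count scaling, 0.0895 in FPKM and 0.0642 without chromosome 3. The ratio of the large to the small subunit was 1.86 in control and 1.88 in Akt1/2 DKO by FPKM, 1.45 and 1.49 by position, and 1.60 in control without chromosome 3. Of 210 values of 42 named genes under the alternatives, 207 stayed within their interval and 0 turned in sign among genes past 1.5-fold; the 3 others were FPKM values, -2.66 for AKT1, -0.66 for MRPS25 and -0.83 for PTCD3, and the cause was not tested. No paired analysis was possible because there is 1 library per group. Leaving out a replicate was not possible either. Depth limits members such as MRPL36 and MRPS31, whose intervals are among the widest.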
